A study of Mus musculus with 4 samples.

Results

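miR-199a and miR-214 are mouse miRNAs whose genes lie side by side inside a single long noncoding RNA gene, Dnm3os, and which are known as miRNAs of mesenchymal cells. They were measured here with 3 of the 517 mouse assays on a pair of TaqMan low density array cards, chosen as every mouse assay named miR-199 or miR-214 with no star in its name. The 3 assays are mmu-miR-199a-3p, mmu-miR-199a-5p and mmu-miR-214, written below without the prefix for mouse, and each has 1 well on card A. The samples were bronchoalveolar stem cells (BASCs), 2 labelled as control and 2 labelled as c-Myc depleted, all from lungs of ICR mice 4-6 weeks old. BASCs were sorted as CD31neg CD45neg CD34pos ScaIpos cells and first grown on irradiated mouse embryonic fibroblasts. For the later passages the study's results name collagen-coated dishes, while its methods name the fibroblasts again. By the labels' treatment text, which all 4 samples carry, stable lines were made with a lentiviral c-Myc shRNA and puromycin selection. The labels do not state which of the shRNA constructs was used, what the control cells received, or whether replicates 1 and 2 were separate cultures, so that p-values measure only the spread between these samples, which may be technical. c-Myc itself is not on the cards, and its depletion could not be checked in these samples. The comparison asked which miRNAs changed when c-Myc was lowered.

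A miRNA is cut from a hairpin precursor, and either strand of the hairpin can be loaded into the silencing complex, where bases 2 to 8 from the 5′ end, the seed, find the target mRNAs. The miR-199 and miR-214 hairpins of Dnm3os are transcribed together from the strand opposite to the gene Dnm3, and the transcription factor Twist1 is known to drive them. c-Myc is known mostly as a repressor of miRNA genes, apart from the miR-17-92 cluster that it activates. Both are background and were not measured here.

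The mature sequences are shown because they decide which genes each assay can report. The seed is in capitals, and the sequences are those of RefSeq on GRCm38.p6.
miR-199a-3p: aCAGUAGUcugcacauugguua
miR-199a-5p: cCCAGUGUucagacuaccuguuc
miR-214: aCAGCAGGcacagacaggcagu
miR-214*: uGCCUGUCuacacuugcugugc
miR-761: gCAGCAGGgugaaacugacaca
On chromosome 1, Mir199a-2 encodes miR-199a-5p at chr1:162217844-162217866 and miR-199a-3p at chr1:162217883-162217904, and Mir214 encodes miR-214* at chr1:162223397-162223418 and miR-214 at chr1:162223438-162223459, all on the + strand. The hairpins are 5444 bases apart and both lie within Dnm3os, and on the other strand within Dnm3. The same mature miR-199a-3p also comes from Mir199a-1 at chr9:21496498-21496519 on the - strand, which lies within Dnm2. The mature miR-199b-3p of Mir199b, at chr2:32318524-32318545 on the + strand within Dnm1, has the identical 22 bases, so that the miR-199a-3p assay cannot tell the 3 genes apart. miR-214 comes from Mir214 alone. The seeds of miR-199a-3p and miR-214 agree at 5 of 7 positions, with the substitutions U5C and U8G counted from the 5′ end of miR-199a-3p, and the whole sequences agree at 8 of 22. miR-761, from chr4:109017669-109017690 on the + strand, shares the seed of miR-214. Its 2 wells gave no signal in any of the 4 samples.

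miR-214 was higher in c-Myc depleted BASCs, and miR-199a-3p was higher in both depleted samples than in both controls without passing the test. Levels were read as threshold cycles (CT), where a lower CT means more RNA and 1 cycle stands for a factor of 2. miR-214 had CTs of 25.98 and 26.29 in the controls and of 24.94 and 24.98 in the depleted samples. The groups did not overlap, and the depleted pair lay closer together than the control pair. miR-199a-3p had CTs of 25.97 and 25.72 in the controls and of 24.78 and 24.97 in the depleted samples. Again the groups did not overlap, and their means were 0.97 cycles apart.

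**Figure D1:**
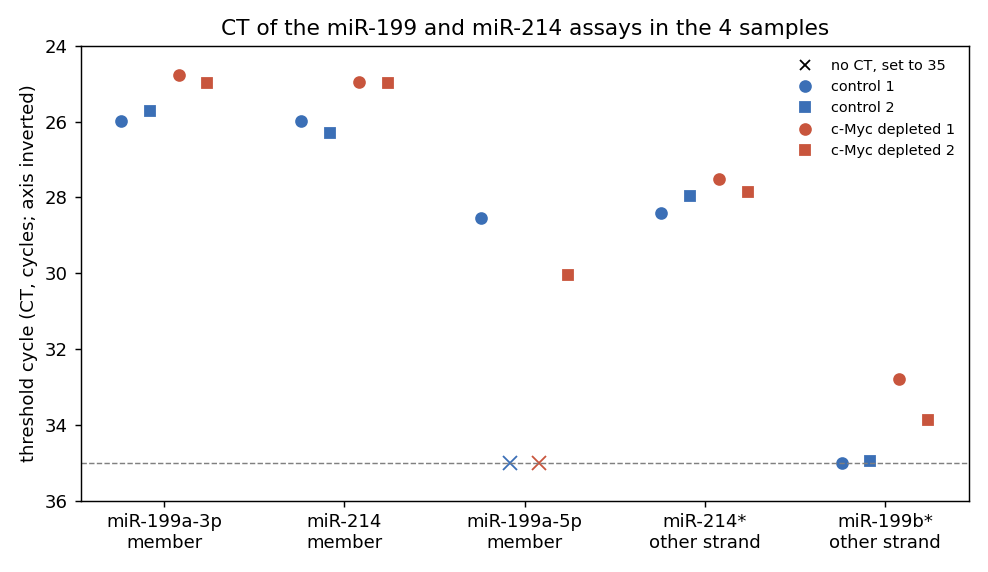
CT in cycles (inverted axis, so that more RNA is higher) of the 3 member assays and of the star strands miR-214* and miR-199b*, with 1 point per sample, control in blue and c-Myc depleted in red, circles for replicate 1 and squares for replicate 2. Card B assays are the mean of 2 wells, values above 35 are drawn at 35, and crosses mark wells with no CT; miR-199a-3p and miR-214 lie near 26 in controls and near 25 in depleted samples.

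To compare samples, the mean CT of U6, a small nuclear RNA measured in 4 wells per card, was subtracted to give ΔCT. For miR-214 the ΔCT was 7.08 and 7.18 in the controls, against 6.08 and 6.14 after depletion, or 7.13 ± 0.0716 against 6.11 ± 0.0448 (SD, n = 2 each). The log2 change, the control mean minus the depleted mean, was 1.02 with a standard error of 0.12 and a 95% interval of 0.67 to 1.38, which is 2.03-fold (1.59 to 2.59) higher after depletion. In limma over 80 miRNAs the adjusted p of miR-214 was 0.0115. Without depleted replicate 1 or 2 the log2 change was 0.99 or 1.05, and miR-214 was no longer called. In those fits limma gave miR-214 and miR-199a-3p the same standard error of 0.990, so they do not test either miRNA by its own spread. miR-214 was one of the 20 of 80 tested miRNAs (25%) that were called higher, while 6 of 80 (7.5%) were called lower. It also passed the study's cut-offs in the higher direction, a fold above 2 with an unadjusted p below 0.05, as did 13 of 80 (16.2%). The p-values for this count were those of limma. The study took its p-values from another test, so the count does not repeat its own selection.

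For miR-199a-3p the ΔCT was 7.08 and 6.62 in the controls, against 5.92 and 6.13 after depletion, or 6.85 ± 0.324 against 6.02 ± 0.151 (SD, n = 2 each). The spread between its controls was larger than for miR-214, and control replicate 2 was the closest to the depleted samples. The log2 change of miR-199a-3p was 0.82 with a standard error of 0.22 and a 95% interval of 0.18 to 1.46, which is 1.77-fold (1.14 to 2.75). Its adjusted p in limma was 0.0722, above the threshold of 0.05. Without control replicate 2 the log2 change was 1.05 with an adjusted p of 0.0342 in limma. Depleted samples that both lie above both controls were also common in general, at 32 of the 80 tested miRNAs (40%). The exact two-sided permutation p was 0.333 for miR-214 and for miR-199a-3p, the smallest that 2 samples per group allow.

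In rank of log2 change, miR-214 was 15th and miR-199a-3p 24th of 80. The median of all 80 was 0.05, and that of the 64 tested on card A was 0.23. Relative to that card A median, miR-214 was higher by 0.79 and miR-199a-3p by 0.59, a difference that no reference taken from the same card can alter. The study's methods also turn CT into copies per cell with a fixed line, without a reference. On that scale miR-214 had 717 and 578 copies in the controls against 1467 and 1426 after depletion. miR-199a-3p had 721 and 855 copies in the controls against 1641 and 1439 after depletion. In bulk samples such as these, fewer cells of a type and less RNA per cell cannot be told apart.

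The miR-199a-5p assay, for the other strand of the miR-199a hairpin, gave a CT in only 2 of 4 samples, one of each group. It read 28.55 in control replicate 1 and 30.04 in depleted replicate 2, with no CT in the other samples. It passed the filter on low values, a lowest ΔCT below 10, through control replicate 1 alone. With the empty wells set to a CT of 35, its log2 change was -0.90 with a standard error of 2.97 and an adjusted p of 0.832 in limma, and an interval of -9.54 to 7.75 that allows a large change either way. The sample with the most miR-199a-5p, control replicate 1, did not have the most miR-199a-3p. Of the 3 members, then, 1 was called higher and none lower, against 25% and 7.5% of all tested miRNAs.

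The ratio of miR-199a-3p to miR-214 needs no reference, because both wells are on card A. Its log2 was 0.0078 and 0.57 in the controls, against 0.16 and 0.013 after depletion. The depleted values lay within the range of the controls. The change of the log2 ratio was -0.20, smaller than the SD of 0.396 between the controls, and 2 samples per group allow no exact test that could pass 0.05. The level of one assay against another also reflects assay efficiency, so that only the change of this ratio compares samples.

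The star strands were measured on card B and are not members of the set. miR-214*, which is cut from the same hairpin as miR-214, had a mean CT of 28.41 and 27.97 in the controls and of 27.51 and 27.85 in the depleted samples. Before a reference was subtracted it was 0.50 cycles lower in CT after depletion, and after subtraction of the U6 wells of card B its log2 change was -0.22 with a standard error of 0.30 and an adjusted p of 0.606 in limma. The U6 wells themselves moved by 0.15 cycles on card A and by 0.72 on card B, so that the sign for miR-214* rests on the reference. The log2 ratio of miR-214 to miR-214* was 2.43 and 1.68 in the controls, against 2.57 and 2.87 after depletion, a change of 0.67 between assays of different cards (exact permutation p = 0.333). Both depleted values lay above both control values, by a small margin at control replicate 1. miR-199b*, from the Mir199b hairpin, was near the limit of detection in the controls, with wells at 35.56, 34.99, 35.41 and 34.94, and read 32.43 and 33.15 in depleted replicate 1 and 33.96 and 33.80 in depleted replicate 2. Its wells came up earlier in both depleted samples than in both controls. In limma over all 263 detected miRNAs its log2 change was 0.92 with a standard error of 0.41 and an adjusted p of 0.281.

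The size of the difference depended for both miRNAs on the control RNA. On card A, U6 moved by 0.15 cycles between controls and depleted samples, while snoRNA135 moved by 1.07, U87 by 1.14, Y1 by 0.36 and snoRNA202 by -0.17, positive values meaning an earlier CT after depletion. The same RNAs moved otherwise on card B, with snoRNA135 at -0.017, U87 at 0.53, Y1 at 0.40 and snoRNA202 at 1.001. Without any reference, the log2 change was 1.17 for miR-214 and 0.97 for miR-199a-3p, about as large as those of snoRNA135 and U87. With U87 as the reference, it was 0.04 for miR-214 and -0.16 for miR-199a-3p, whose direction turned, and the median of card A moved to -0.76. With each of the other references tried, both miRNAs remained higher in the depleted samples, by 0.52 to 0.81 for miR-214 and by 0.32 to 0.66 for miR-199a-3p. miR-214 passed the threshold of limma with U6 or no reference, and miR-199a-3p with no reference.

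**Figure D2:**
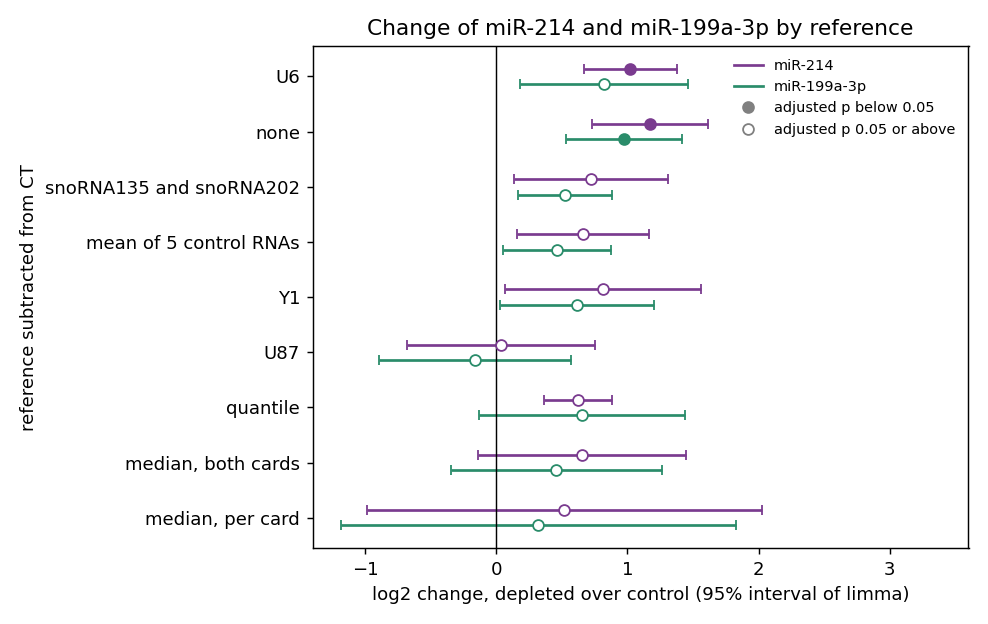
Log2 change of miR-214 (purple) and miR-199a-3p (green), depleted over control with the 95% interval of limma, for 9 ways of setting the reference (vertical axis), with filled points for an adjusted p below 0.05. The points lie between 0.32 and 1.17 in every setting except U87, where they are 0.04 and -0.16.

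Many miRNAs of card A differed by about 1 cycle. Of the 64 tested there, 17 moved by less than 0.1 cycle either way before any reference was subtracted. After depletion, 20 came up 0.9 to 1.5 cycles earlier, 8 of them by less than 1.1 and 12 by 1.1 or more. Between these groups, 7 lay from 0.1 to 0.4, 1 from 0.4 to 0.6 and 5 from 0.6 to 0.9, ranges of unequal width. miR-214 at 1.17 and miR-199a-3p at 0.97 are among the 20. The deposited CTs also crowded just below whole cycles. Of the 1366 CTs in all wells and samples, 604 (44.2%) lay within the last 0.1 cycle below a whole number, as did 2 of 4 CTs of miR-199a-3p and 3 of 4 of miR-214. The share was 42.4% in control replicate 1, 47.9% in control replicate 2, 31.7% in depleted replicate 1 and 54.5% in depleted replicate 2. How far this crowding sets the size of the differences was not tested.

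**Figure D3:**
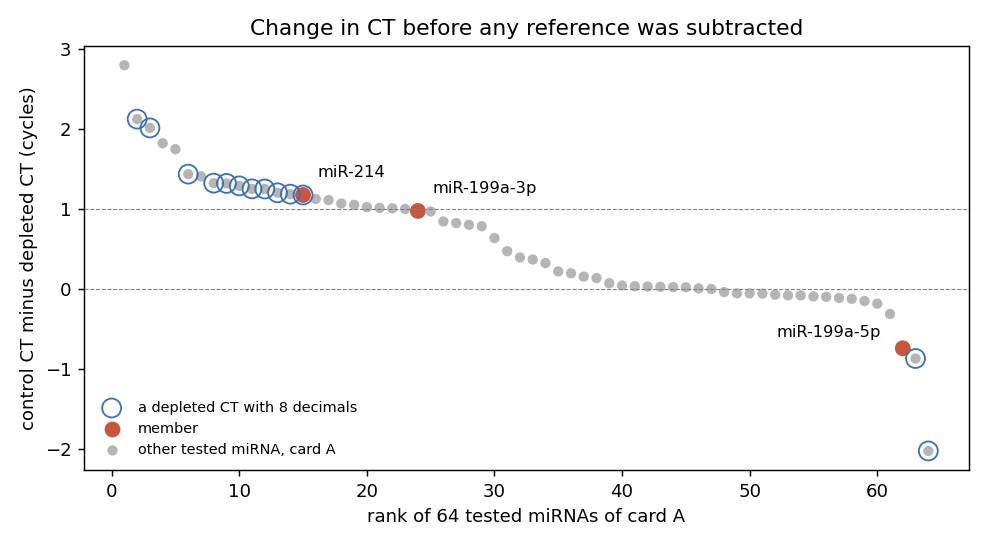
Control CT minus depleted CT in cycles, before any reference, of the 64 tested card A miRNAs in rank order, with members in red and blue rings around miRNAs that have depleted CTs written with 8 decimals. miR-214 (ringed) and miR-199a-3p sit on a shelf near 1 cycle, and another shelf lies near 0.

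**Figure D4:**
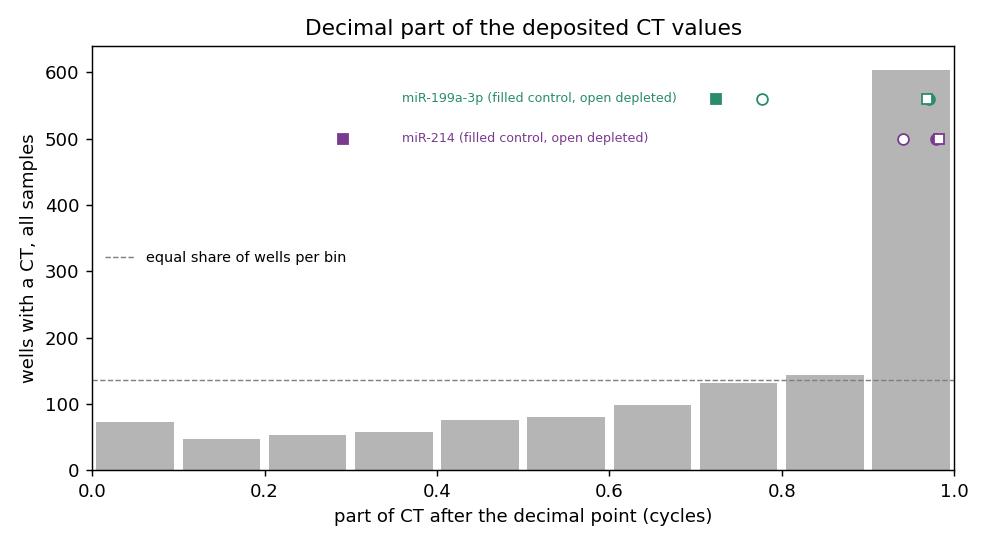
Number of wells with a CT (vertical axis, all samples and cards) by the part of the CT after the decimal point in cycles, with the 4 CTs of miR-199a-3p (green) and of miR-214 (purple) above, filled for control and open for depleted samples. The last bin holds 604 of 1366 CTs, and 5 of the 8 member CTs shown fall in it.

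The depleted CTs of miR-214 were also written in another way from the rest. Both carry 8 decimals, and subtracting the U6 mean leaves a ΔCT of few digits, 6.08001 and 6.14339. CTs with 8 decimals were found for 13 miRNAs (24 values), in depleted samples and in none of the controls, while all other CTs have at most 6. Of the 13 miRNAs, 12 were called, out of 26 calls in all. The CTs of miR-199a-3p have 5 or 6 decimals in every sample. What was done to these values is not given in the sources used here. Without the 13 miRNAs, miR-214 among them, 3 of 67 tested miRNAs were called, and miR-199a-3p kept its log2 change of 0.82 with an adjusted p of 0.108 in limma.

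The miRNAs most like each member were those at the smallest distance to it in ΔCT, centred on the mean of the 4 samples, among the other 188 mouse miRNAs with a CT below 35 in every sample. For miR-199a-3p they were miR-532-3p, miR-351, let-7i, miR-376b and miR-222, at distances of 0.0810 to 0.197 cycles. None of the 5 has CTs with 8 decimals, and let-7i (log2 change 0.85) and miR-222 (0.90) were called higher, with adjusted p in limma of 0.0428 and 0.0224. miR-532-3p, miR-351 and miR-376b did not pass the ΔCT filter and were not among the 80 tested. For miR-214 they were miR-125b-5p, miR-20a, miR-17, miR-139-5p and miR-106b, at 0.111 to 0.206 cycles. All 5 of these have 8-decimal CTs, as miR-214 has, against 13 of the 189 miRNAs detected in all samples. All 5 were called higher by 1.03 to 1.17. For both members, a like change follows from how the nearest miRNAs were picked. Among them, miR-17 and miR-20a belong to the miR-17-92 cluster and miR-106b to a related cluster. miR-214 was 35th in likeness to miR-199a-3p, and miR-199a-3p 29th in likeness to miR-214, at 0.456 cycles, mostly through control replicate 2.

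The name of the set as mesenchymal was set against markers of the cell types that the cultures could hold. Of 13 miRNAs typical of fibroblasts and smooth muscle, 10 were detected in all 4 samples. miR-145, a smooth muscle and fibroblast miRNA, had CTs of 25.0 and 24.9 in the controls, against 25.0 and 24.8 after depletion, and its partner miR-143 had 27.0 and 27.0 and then 26.6 and 27.0. Of the epithelial markers of the miR-200 family, miR-200c was at 33.0 and 34.0 in the controls, against 34.0 and 33.4 after depletion, miR-141 was below CT 35 only in control replicate 1, at 34.6, and miR-200b only there, at 32.6. Also of that family, miR-200a read 31.8 and 33.0 in the controls and miR-429 read 31.5 in control replicate 1, both with no CT below 35 in the other samples. Other epithelial miRNAs of the list came up earlier, with miR-182 at 28.6 and 29.0 in the controls, against 28.7 and 29.0 after depletion, and its neighbour miR-183 between 31.9 and 33.0. The cells labelled as BASCs, a population described as epithelial, thus gave CTs for the defining stromal pair and for miR-182 in every sample, while of the 3 defining epithelial miRNAs only miR-200c was below 35 in all 4. These are CTs of different assays and do not rank the miRNAs by amount. The part of feeder fibroblasts in the levels was not tested.

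The stromal list did not move as one with miR-199a-3p and miR-214. Of its 13 miRNAs 9 were tested, and 2 were called higher, miR-125b-5p (also with 8-decimal CTs) by 1.1 and miR-152 by 0.86, against none lower, beside 25% and 7.5% of all tested miRNAs. Its median log2 change was 0.30 against 0.05 for all 80, while the defining pair stood at 0.04 for miR-143 and -0.13 for miR-145. Its summed copies per cell were 5194 and 5249 in the controls, against 8135 and 7595 after depletion. Such sums use no reference and add over assays whose efficiency may differ. After depletion the lowest CTs of the list were those of miR-125b-5p, 23.87 and 23.97, which had 24.96 and 25.37 in the controls. The sum is therefore not a measure of the list as a whole. The epithelial sum was 172 and 111 copies against 152 and 101, with 1 of 11 miRNAs tested, miR-182 at a log2 change of -0.21, and none called. miR-126-3p, the defining endothelial miRNA, fell by 2.18 on the log2 scale, although it is also one of the 13 with 8-decimal CTs. The other miRNA of that list, miR-126-5p, had CTs of 33.42 and 33.97 in the controls, against 34.76 and 33.96 after depletion, and the groups overlapped. The endothelial sum, which adds both, went from 106 and 104 copies to 28.7 and 26.0. The blood sum was 756 and 741 against 843 and 826. Within it miR-155 had CTs of 25.96 and 25.94 in the controls, against 25.91 and 25.95 after depletion, while miR-486, an erythroid miRNA, had no CT below 35 in either control and read 29.02 and 29.15 in the depleted samples. The muscle sum was 4.68 and 2.33 against 4.77 and 24.2. Of its defining miRNAs, miR-1 had no CT below 35 in any sample, and miR-133a only in control replicate 1, at 34.7. miR-206 had CTs of 33.97 and 34.29 in the controls, against 33.25 and 30.89 after depletion. The part of other cell types in the rise of miR-214 was not tested.

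**Figure D5:**
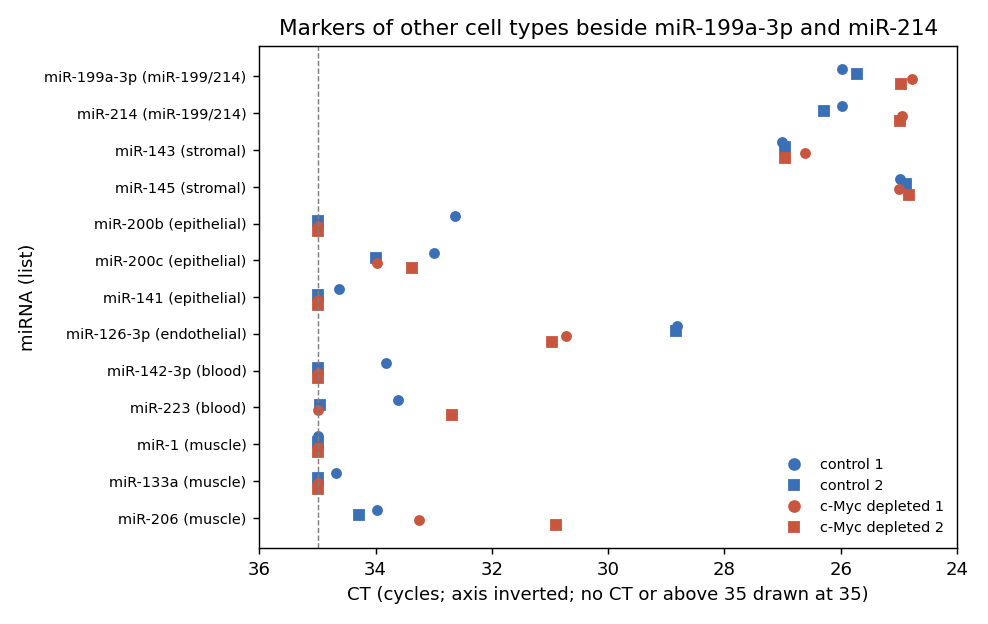
CT in cycles (inverted axis, more RNA to the right) of miR-199a-3p, miR-214 and the defining miRNAs of the stromal, epithelial, endothelial, blood and muscle lists, 1 point per sample with values of 35 or no CT at the dashed line. miR-143 and miR-145 lie near 27 and 25 in every sample, while miR-200b, miR-200c and miR-141 are at 32.6 or later; other members of the epithelial list, such as miR-182 at 28.6 to 29.0, are not drawn.

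Among 24 miRNAs that c-Myc is known to repress, 10 were tested, and 3 were called higher and none lower, near the 25% and 7.5% of all 80. They were miR-34a (1.17), known as a p53 target, miR-26a (1.1) and miR-30c (0.87), of which the first pair also has 8-decimal CTs, and the list's median was 0.06. miR-214 and miR-199a-3p are not on that list.

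The 300 bases around the annotated start of Dnm3os are shown because c-Myc is known to bind DNA at a short motif, the E-box. They run from chr1:162217373-162217672 on the + strand of GRCm38.p6 (RefSeq), from 250 bases before to 50 after the start, with each E-box of the form CANNTG in capitals.
Dnm3os promoter: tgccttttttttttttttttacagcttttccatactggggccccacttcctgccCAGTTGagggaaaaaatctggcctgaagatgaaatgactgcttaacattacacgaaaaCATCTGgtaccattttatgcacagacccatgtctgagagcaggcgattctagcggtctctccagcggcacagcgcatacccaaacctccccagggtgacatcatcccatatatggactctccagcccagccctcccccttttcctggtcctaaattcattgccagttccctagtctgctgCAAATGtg
The window holds 3 such motifs, which begin at -196, -138 and 42 bases from the start. The letters CANNTG read the same on both strands as a pattern and include CACGTG, the form that c-Myc prefers, which is not in this window. Of 32851 mouse promoters of the same length, 72.3% hold CANNTG and 7.15% hold CACGTG. No binding was measured, and a match in letters is not a site.

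A CT was given in 351 and 340 wells of the controls and in 334 and 341 wells of the depleted samples. The median difference in ΔCT between replicates, over 189 miRNAs detected in every sample, was 0.304 in the controls and 0.255 in the depleted samples, against 0.50 to 0.653 between samples of different groups.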

How the data were processed

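Total RNA of 4 samples was profiled on TaqMan low density array cards. The authors deposited threshold cycle values, one other unit than reads or intensities, and named them non-normalized. Whether every value is as the instrument's software gave it is not known, since 24 depleted CTs carry 8 decimals. Per the labels, Partek 6.4 was among the processing tools. Samples were grouped by the labels' control and depleted names. A ceiling of 35 replaced later or missing CTs before an assay's wells were averaged, and ΔCT was taken against U6 on the same card. Mouse miRNAs with a lowest ΔCT below 10 in any sample (80) were tested with limma 3.58.1 (R 4.3.3, lmFit and eBayes, 2 residual degrees of freedom) with Benjamini-Hochberg adjustment. Tables were made with Python 3.11.15, numpy 2.4.6, pandas 2.3.3 and scipy 1.17.1. In simulated data (20 runs of 400 miRNAs, 200 changed by 1.5 on the log2 scale), limma called 88.1% of the changed ones, and false calls made up 2.2%. That change is larger than those of miR-214 (1.02) and miR-199a-3p (0.82), and no shift of a card or reference was simulated. The shares therefore do not give the power or the error of the calls made here. The number of samples, not of reads, limits the precision. The set, its marker lists and its tests were chosen with earlier results of these data known. The miRNAs named were the members, their star strands and same-seed miRNA, the 5 nearest patterns of each member and the control RNAs. From the lists, those that were called or define a cell type were named. miR-126-5p, miR-142-5p, miR-155, miR-182, miR-183, miR-200a, miR-429, miR-451 and miR-486 were named after their values were seen. Sequences and promoters came from RefSeq tables of GRCm38.p6, whose gene annotation was used only for names and neighbours. Alternatives covered the reference, the ceiling, the filter, the test, a replicate block and leaving out each sample. The study's mRNA arrays were not analysed here.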

Additional observations from a re-analysis of the deposited data

How the results depend on the processing

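With 2 samples per group, 2 residual degrees of freedom remained, and the range of CTs, not read depth, set what could be measured. The log2 change of miR-214 was above 0 under all 20 alternatives run but lost its call with each card centred on its median (0.52), both cards centred together (0.66), snoRNA135 and snoRNA202 (0.72), quantile normalization (0.62), no ΔCT filter (1.02), one-way ANOVA per miRNA (1.02) and, in references added after the data were seen, U87 (0.036), Y1 (0.81) and the mean of 5 control RNAs (0.66). Its adjusted p ran from 0.00575 to 0.997, and leaving out one sample gave 0.97 to 1.07. That of miR-199a-3p ran from 0.0202 to 0.997. miR-199a-3p passed the threshold with no reference (0.97), no ceiling (0.82), ΔCT below 10 in all samples (0.82), a variance trend (0.82), the crossed block (0.82) and without control replicate 2 (1.05), turned to -0.16 with U87, and ran from 0.59 to 1.05 without one sample. Leaving out either depleted sample ended every call of a rise, in fits where limma gave miR-214 and miR-199a-3p the same standard error of 0.990. miR-199a-5p ran from -4.02 to 2.23, and the ratio of miR-199a-3p to miR-214 from -0.48 to 0.080, when one sample was left out, the ratio turning without control replicate 2.

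miR-214* turned to 0.22 with each card's median, 0.012 with snoRNA135 and snoRNA202, 0.50 with no reference, 0.28 with quantile normalization, 0.10 with Y1 and 0.15 without control replicate 2, with -0.58 to 0.15 over the left-out samples. With U87, let-7i turned to -0.14, miR-152 to -0.13, miR-222 to -0.087 and miR-30c to -0.12. The 26 calls became 1 with card medians, 6 with both cards' median, 18 with snoRNA135 and snoRNA202, 4 with quantile normalization, 2 without the ΔCT filter, 17 with ΔCT below 10 in all samples, 3 with ANOVA, 3 without the 8-decimal miRNAs, 4 with Y1, 10 with the mean of 5 control RNAs, and 0 to 25 without one sample. The share of calls that were higher was 76.9% with U6, 92.9% with no reference, 66.7% with snoRNA135 and snoRNA202, 50% with both cards' median or Y1, 3.33% with U87, and 0 with quantile normalization or card medians, and the median of card A went from 0.23 to between -0.76 and 0.38. The causes of these changes were not tested. With card medians, limma gave miR-214 and miR-199a-3p the same standard error of 0.763, against 0.121 and 0.220 with U6.

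The sample titles give replicate numbers but do not state a pairing. Deviations of same-numbered samples correlated at -0.436 over the 80 miRNAs. With 2 samples per group this correlation cannot show whether samples were paired. With a replicate block miR-214 kept 1.02 with an adjusted p of 0.0686 in limma, and 0 miRNAs were called (26 at an unadjusted p below 0.05). A crossed pairing, added after the data were seen, called 33, a count that is no evidence for any pairing.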
